A study of Homo sapiens with 8 samples.

Results

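The comparison described here is that of RBM6-KO with control MCF10A-Hras cells when neither had been treated, over 4 of the 8 libraries of the series. MCF10A is a non-tumorigenic human breast epithelial line, and the cells used here also carry the H-Ras oncogene, so every group shares this transformation and a medium with horse serum, EGF, hydrocortisone, cholera toxin and insulin. The control group (genotype WT, untreated) and the RBM6-KO group (RBM6-KO1, untreated) had 2 biological replicates each, lettered A and B. RBM6-KO1 is a clone grown from a single cell, so the loss of RBM6 and other differences of that clone from the control cells cannot be told apart. The other 4 libraries came from the same cells 12 h after 5 Gy of IR and are used only to see whether a difference returned in libraries that the untreated comparison does not share. Of 58233 genes in the count table, 15556 passed a filter on low counts and make up the genes described. They were tested with edgeR's quasi-likelihood test, and a gene was called where its p, adjusted by the method of Benjamini and Hochberg over all 15556 genes, was under 0.05 and its mean differed 2-fold or more. Levels are given as normalized CPM, a gene's counts brought to one common library total after TMM scaling, for each library in the order A, B.

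RBM6 is a nuclear RNA-binding protein with RNA recognition motifs, a zinc finger, an OCRE and a G-patch domain, and acts in the choice of alternative splice sites. Proteins of this kind can change how much of an mRNA is kept as well as which isoform is made, and a per-gene count reads only the first. Breast epithelial cells in culture lay down and remodel their own matrix, attach to it and to each other through adhesion receptors, and make much of their own fat, and genes for these functions are well expressed in MCF10A cells. The clone was made with a Cas9 nickase, which cuts 1 strand, and a pair of guides in exon 3 of RBM6. The guides are shown because they define the allele that the libraries are labelled with. The protospacer adjacent motif (PAM), which follows the protospacer in the genome, is in capitals.
F3 guide and PAM: ccacccctatagtccataggTGG
F4 guide and PAM: tatggattatagaggtagggAGG
F3 lies on the minus strand at chr3:49967819-49967838 of hg38 and F4 on the plus strand at chr3:49967851-49967870. Each spacer had 1 perfect site in that genome, and the expected nicks are 46 bases apart on opposite strands. On the plus strand from chr3:49967799-49967890, with both protospacers in capitals, the target reads as follows.
RBM6 exon 3 site: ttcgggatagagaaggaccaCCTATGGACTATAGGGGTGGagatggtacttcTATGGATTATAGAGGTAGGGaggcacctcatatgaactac

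RBM6 (ENSG00000004534, chromosome 3, 49940007 to 50100045) had 67.1 and 69.0 normalized CPM in control cells and 61.7 and 62.1 in RBM6-KO cells. The RBM6-KO libraries were the lower, but the log2 fold change of -0.14 (SE 0.15) did not pass (adjusted p = 0.712, edgeR). Counts per gene cannot show a small deletion in exon 3 or a loss of the protein, so they check the label neither way. The study itself checked its knockout clones by DNA sequencing and by western blot for RBM6. Library totals ran from 15355281 to 18754895 counts. Of 8 basal breast epithelial markers, such as KRT5, TP63 and ITGB4, all were tested and 0 were called by edgeR, 0 were called by DESeq2, and 2, KRT14 (higher) and CDH3 (lower), passed the adjusted p (0.0156 and 0.0176, edgeR) with a change under 2-fold and were the markers with an unadjusted p under 0.05. Their summed level was 4978 and 5845 CPM in control and 5161 and 4684 in RBM6-KO cells. The defining leukocyte genes were at 0 to 5 counts in every library. EPCAM, an epithelial adhesion protein, went from 21.5 and 26.8 to 6.61 and 7.36 CPM, a log2 fold change of -1.79 (SE 0.22, adjusted p = 4.43e-05, edgeR). Of 6 luminal markers 3 were tested and 0 called by edgeR or DESeq2, 2 of them, KRT8 and KRT18, with an unadjusted p under 0.05 (adjusted p = 0.0626 and 0.0175, edgeR) and lower by under 2-fold, and the sum of the list was 698 and 745 CPM in control and 444 and 549 in RBM6-KO cells. In bulk RNA, fewer cells that express a gene and less RNA per cell cannot be told apart.

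Of the 15556 genes, 486 (3.12%) were called, 306 (1.97%) lower and 180 (1.16%) higher in RBM6-KO cells. All 486 had libraries that did not overlap between the groups, as did 47.6% of all genes tested. The lower genes had moved further. Their median change was 3.32-fold and that of the higher genes 2.74-fold, also when genes with no count in a group are put at the bound that 3 counts per library give. With that bound 25 of the lower and 3 of the higher genes changed 16-fold or more, and 15 and 2 of these had only 1 to 3 counts in the group with less mRNA, so that their fold is uncertain. Most called genes were expressed at low or middle levels. In the group with more mRNA, 18 of the lower and 14 of the higher genes exceeded 100 CPM on average, and 120 and 64 were under 5 CPM. Of the called genes, 16 lower and 2 higher genes had no count in either library of the other group. The median GC content of the longest transcript was 55.7% for lower genes, 46.0% for higher genes and 47.8% for all genes tested. After offsets for GC content and length, 264 of the 306 and 152 of the 180 were still called and all had kept their direction. Of genes described below, ADAMTS6, SERPINA1, EPHA1, CDH4, PCDHGC3, SLC7A11, IGF1R, FASN, DHCR7, CDC42BPA, DYNC2H1, ZEB1, ZEB2, EIF5B and KIF20B were then under 2-fold. The count of higher genes was 322 without replicate A of the control cells, and that of lower genes was then 336.

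**Figure D1:**
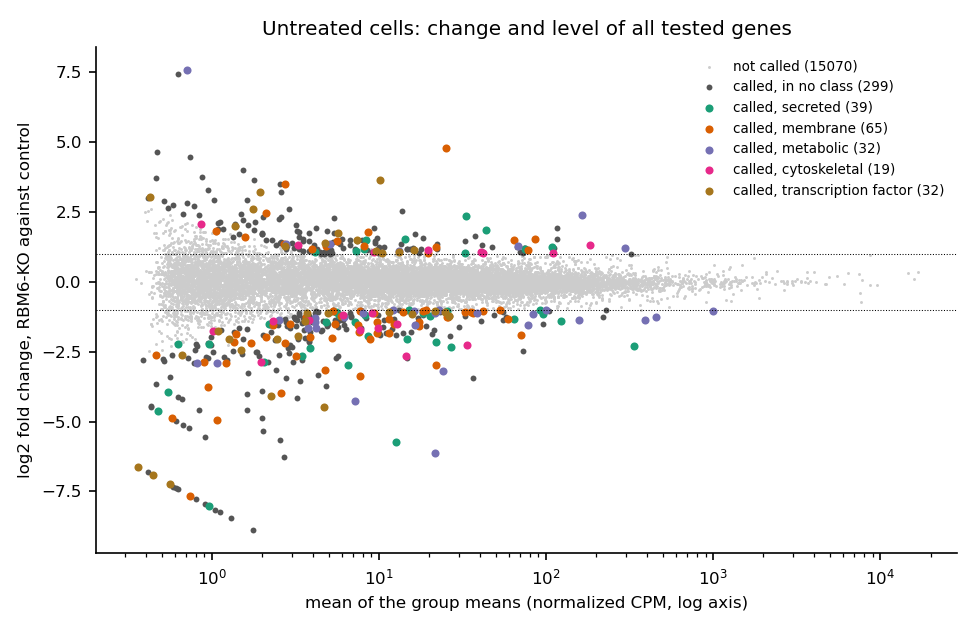
Log2 fold change of RBM6-KO against control (vertical) by the mean of the group means in normalized CPM (horizontal, log axis) for the 15556 genes tested in untreated cells, with called genes coloured by functional class and dotted lines at 2-fold. Called genes fill the whole range of levels below about 100 CPM and few lie above it, and the slanting row at the lower left holds genes with no count in RBM6-KO libraries, whose fitted size depends on a prior count.

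Protein-coding genes were sorted into 5 functional classes by symbol families, which do not hold every gene of a function, and 187 of the 486 called genes fell into a class. Secreted proteins had the highest share of called genes. Of 261 tested, 39 (14.9%) were called, 29 lower and 10 higher, against 3.12% of all genes. Membrane proteins followed with 65 of 756 (8.60%), 49 lower and 16 higher. Metabolic enzymes had 32 of 607 (5.27%), 25 lower and 7 higher, cytoskeletal genes 19 of 441 (4.31%), 11 lower and 8 higher, and transcription factors 32 of 879 (3.64%), 19 lower and 13 higher. Among the 12612 genes in none of the classes, 299 (2.37%) were called. Lower genes made up 11.1% of secreted and 6.48% of membrane genes against 1.97% of all genes, and higher genes made up 3.83% and 2.12% of them against 1.16%. The median log2 fold change over all tested members was -0.19 for secreted, -0.11 for membrane, -0.09 for metabolic, -0.02 for cytoskeletal and -0.03 for transcription factor genes, against 0.01 for all genes.

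**Figure D2:**
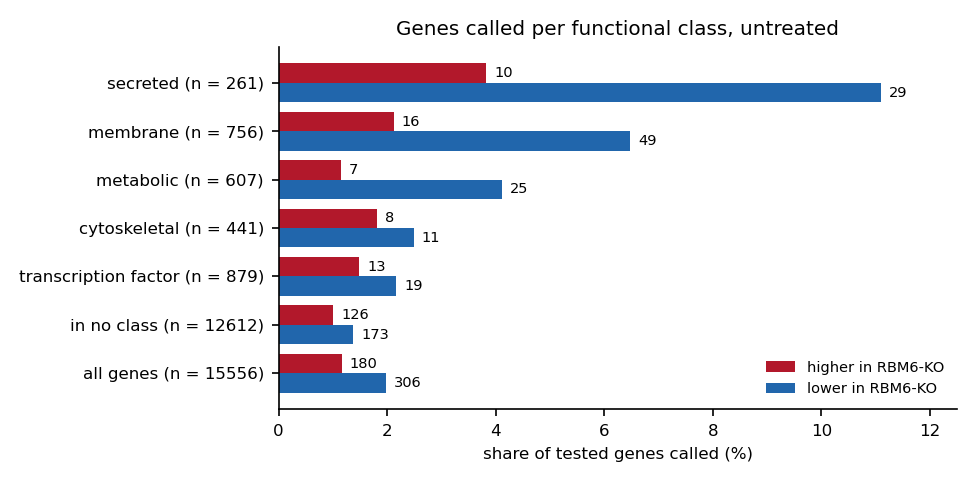
Share of tested genes called (horizontal, percent) as higher or lower in untreated RBM6-KO cells for each functional class, for genes in no class and for all genes, with the number of called genes at each bar. The bars for lower genes are the longer in every class and shorten from secreted (29 of 261) to transcription factor genes (19 of 879).

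Proteins of the extracellular matrix were called in both directions. Of 21 collagens tested 2 were lower and 1 higher, and of 7 matrix cross-linking enzymes 1 was lower. TGM2 (ENSG00000198959, chromosome 20, 38127385 to 38166578), a transglutaminase that cross-links matrix proteins, had 629 and 487 CPM in control and 129 and 97.0 CPM in RBM6-KO cells. Its log2 fold change was -2.30 (SE 0.17, adjusted p = 1.37e-07, edgeR), and it lies on a chromosome where 22 of 419 tested genes were called as lower and 3 as higher, with a median log2 fold change of -0.27. CDH4, SLC4A11, ACSS2, MYL9, SNAI1 and EYA2, all described below, also lie on chromosome 20. CEMIP (chromosome 15, 80779343 to 80951776), which takes part in the breakdown of hyaluronan, had 18.0 and 31.4 CPM in control and 0.565 and 0.334 in RBM6-KO cells, or 292 and 584 counts against 10 and 5. This is a log2 fold change of -5.73 (SE 0.37, adjusted p = 3.63e-08, edgeR). In TGM2 and CEMIP the lowest control library was several times above the highest RBM6-KO library. The chains of collagen VI, a beaded filament of the pericellular matrix, went opposite ways. COL6A2 rose from 9.36 and 12.4 to 53.5 and 57.8 CPM (log2 fold change 2.35, SE 0.19, adjusted p = 5.17e-07, edgeR), and COL6A3 fell from 46.7 and 43.3 to 11.8 and 5.82 CPM (log2 fold change -2.35, SE 0.25, adjusted p = 1.14e-05, edgeR). COL6A1, named after the values were seen, was at 74.7 and 79.4 CPM against 89.3 and 89.4 and did not pass (adjusted p = 0.484, edgeR). Of 45 laminins and matrix glycoproteins 4 were lower and 1 higher. EFEMP1, a fibulin, went from 187 and 168 to 76.6 and 58.5 CPM (log2 fold change -1.39, adjusted p = 2.43e-05, edgeR), and THBS1, thrombospondin, from 126 and 138 to 72.9 and 45.7 CPM (log2 fold change -1.15, adjusted p = 0.000683, edgeR). Without replicate B of RBM6-KO cells the change of THBS1 was under 2-fold, at -0.86, and without replicate A that of COL6A3 was -2.95. DCN, decorin, which stands among 6 fibroblast markers, rose by less than 2-fold from 69.7 and 66.7 to 146 and 110 CPM. Of the 6 markers 2 were tested and 0 called. COL1A1, the other one tested, was lower, at 11.6 and 14.4 against 9.26 and 6.22 CPM (adjusted p = 0.0864, edgeR). The summed list, most of it DCN, was 81.9 and 81.2 CPM in control and 156 and 117 in RBM6-KO cells. COL1A2, LUM and PDGFRA were at 0 to 3 counts in every library. The part of these markers in the matrix results was not tested.

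Of the called proteases all but 1 were lower. All 5 called serine proteases of 23 tested were lower. KLK1 among them rested on 18 and 18 counts in control and 4 and 3 in RBM6-KO cells. It was not called with GC and length offsets (adjusted p = 0.0548, edgeR) or with all 8 libraries in 1 fit (adjusted p = 0.105, edgeR). The metalloproteases were counted in 1 family with the TIMPs, which inhibit them. Of 22 tested members of that family 5 were called, all metalloproteases and 4 of them lower. MMP9, a lower one, was not called by DESeq2 (adjusted p = 0.12, DESeq2). The median log2 fold change over all tested members of the 23 and the 22 was -0.24 and -0.36, with 8 of the 23 and 7 of the 22 above 0. MMP15, a metalloprotease held in the membrane, had 12.7 and 14.5 CPM in control and 3.22 and 3.88 in RBM6-KO cells (log2 fold change -1.94, adjusted p = 8.15e-05, edgeR). PLAT, the tissue plasminogen activator, had 27.5 and 28.8 against 14.5 and 9.56 CPM (log2 fold change -1.22, adjusted p = 0.00153, edgeR), which was -0.96 without replicate B of RBM6-KO cells. PRSS3, a trypsinogen, had 26 and 42 counts in control and 0 in each RBM6-KO library and was at least 10.4-fold lower when 3 counts per library are taken as the limit of a count of 0. ADAMTS6 was the metalloprotease called as higher, with 24.2 and 18.9 against 44.3 and 43.7 CPM, and its log2 fold change of 1.03 was 0.88 without replicate B of the control cells. Protease inhibitors moved both ways, and of 25 tested 3 were higher and 2 lower. SERPINB2, an inhibitor of plasminogen activators, rose from 5.23 and 3.55 to 13.5 and 11.0 CPM (log2 fold change 1.49, adjusted p = 0.00152, edgeR), and SERPINA1, alpha-1-antitrypsin, went from 118 and 126 to 56.3 and 64.9 CPM, a log2 fold change of -1.01 that was -0.91 without replicate A of RBM6-KO cells and -0.95 without replicate B of the control cells.

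Among secreted signals, called genes went in both directions. Of 13 TGF-beta superfamily ligands 1 was lower and 1, BMP6, was higher, with a log2 fold change of 1.19 that was 0.65 without replicate A of RBM6-KO cells. TGFB2, the lower one, had 35.0 and 36.7 CPM in control and 8.53 and 7.42 in RBM6-KO cells (log2 fold change -2.16, SE 0.20, adjusted p = 2.29e-06, edgeR). SFRP1, a secreted WNT antagonist, had 92.4 and 91.7 against 36.9 and 36.4 CPM (log2 fold change -1.33, SE 0.15, adjusted p = 2.3e-05, edgeR). The WNT ligands WNT9A and WNT7A were also called, so that all 3 called members of the 14 WNT ligands and antagonists tested were lower. The log2 fold change of WNT9A was -2.35, and that of WNT7A was -1.43 with all libraries and -0.99 without replicate B of the control cells. Of 7 chemokines tested, CXCL2 and CXCL3, which attract neutrophils, were higher and CXCL16 was lower, with a log2 fold change of -1.17 that was -0.89 without replicate B of RBM6-KO cells. CXCL3 had 63.2 and 65.6 CPM in control and 166 and 137 in RBM6-KO cells (log2 fold change 1.24, SE 0.15, adjusted p = 4.69e-05, edgeR). CXCL2 had 50.8 and 42.0 against 111 and 96.4 CPM (log2 fold change 1.17, SE 0.16, adjusted p = 0.000139, edgeR). IGFBP4, which binds and holds back insulin-like growth factors, rose from 19.2 and 18.7 to 67.6 and 68.2 CPM (log2 fold change 1.84, SE 0.16, adjusted p = 1.88e-06, edgeR). Of 36 growth factors tested 1 was called (2.78%). Named after their values were seen, midkine (MDK) fell from 11.0 and 12.2 to 1.41 and 1.54 CPM (log2 fold change -2.97, adjusted p = 3.93e-06, edgeR) and IL33, an alarm cytokine of epithelia, from 27.3 and 19.8 to 6.72 and 4.55 CPM (log2 fold change -2.05, adjusted p = 3.97e-05, edgeR).

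**Figure D3:**
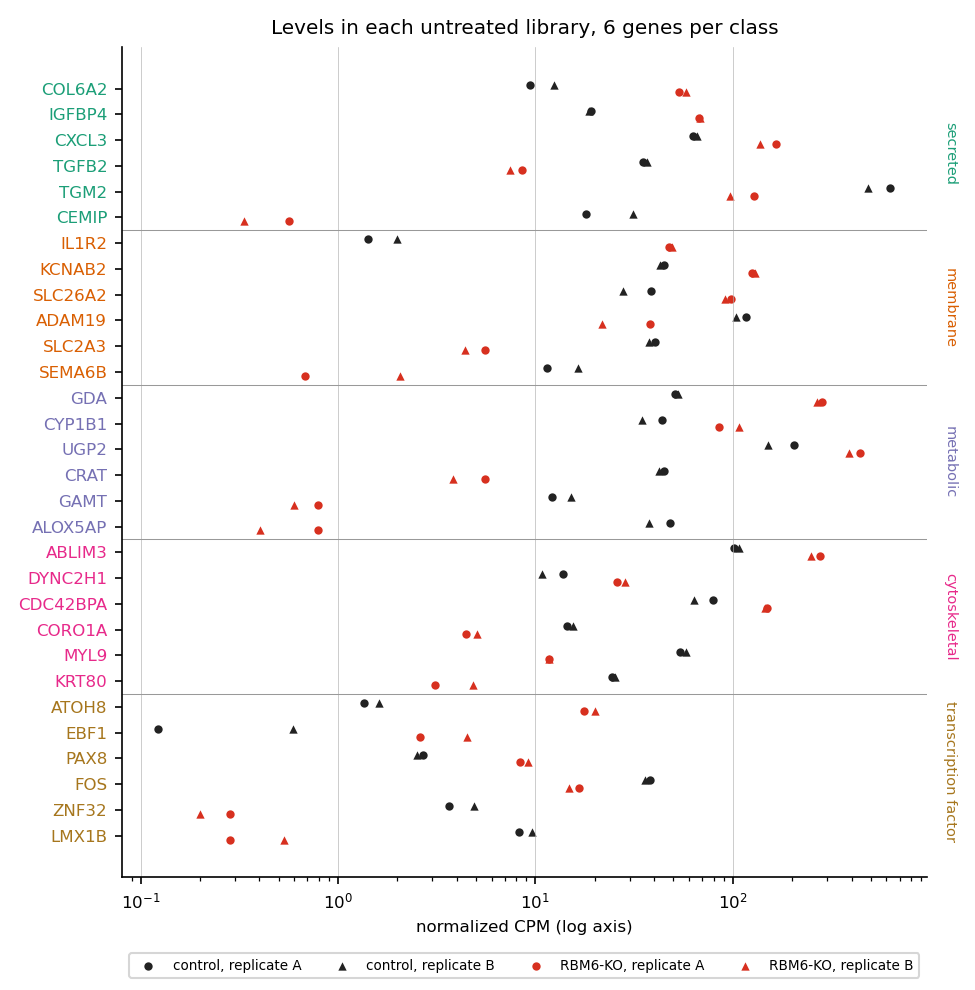
Normalized CPM (horizontal, log axis) in each untreated library for the 3 genes with the smallest p among called higher and lower genes of each functional class, with circles for replicate A and triangles for replicate B. In each of these genes both RBM6-KO libraries lie on the same side of both control libraries, and the replicates are farthest apart for genes under 1 CPM such as EBF1 in control cells.

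The membrane gene with the smallest p was IL1R2 (ENSG00000115590, chromosome 2, 101991960 to 102028544), a decoy receptor that binds interleukin-1 without signalling. IL1R2 had 1.42 and 1.99 CPM in control and 47.5 and 49.2 in RBM6-KO cells. Receptors and ligands of guidance signalling (semaphorins, ephrins and their EPH receptors, ROBO and UNC5 proteins), by which cells attract and repel each other at contact, had called members in 1 direction. Of 40 tested, 9 (22.5%) were called, against 3.12% of all genes, and all 9 were lower. A log2 fold change below 0 was found in 27 of the 40, in 448 of 756 membrane genes and in 7626 of all 15556 genes. The median over the 40 was -0.31. SEMA6B (chromosome 19, 4542593 to 4581776) had 11.5 and 16.4 CPM in control and 0.678 and 2.07 in RBM6-KO cells (log2 fold change -3.38, SE 0.37, adjusted p = 1.53e-05, edgeR). Its RBM6-KO replicates lay apart, and the log2 fold change was -2.75 without replicate A and -4.36 without replicate B of RBM6-KO cells. EPHB2 (chromosome 1, 22710839 to 22921500), an ephrin receptor, had 13.1 and 15.4 against 2.99 and 3.88 CPM (log2 fold change -2.06, SE 0.25, adjusted p = 5.23e-05, edgeR), and EFNA1, an ephrin, 33.9 and 38.2 against 12.8 and 17.1 CPM (log2 fold change -1.27, SE 0.20, adjusted p = 0.000527, edgeR). The other 6 were ROBO4, SEMA4G, EFNB3, UNC5D, EPHB3 and EPHA1. EPHA1 (log2 fold change -1.08) was at -0.97 without replicate A of RBM6-KO cells, and EPHB3 (-1.53) had an adjusted p of 0.331 in edgeR without replicate B of the control cells and 0.0599 without replicate A of RBM6-KO cells. The change of EFNB3 was -2.63 without replicate A of RBM6-KO cells, and UNC5D had 26 and 36 counts against 0 and 4.

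The called adhesion molecules were lower but for 1. Of 29 immunoglobulin adhesion proteins tested, 4 were called and all were lower, BCAM, JAM3, L1CAM and CADM4, and 20 of the 29 were below 0. BCAM, a receptor for laminin, had 14.9 and 15.6 CPM in control and 4.18 and 4.35 in RBM6-KO cells (log2 fold change -1.84, SE 0.23, adjusted p = 7.2e-05, edgeR). JAM3, a junctional adhesion molecule, had 6.03 and 6.34 against 1.70 and 1.40 CPM (log2 fold change -1.99, adjusted p = 0.000588, edgeR), and CADM4 lost its call without replicate B of the control cells (adjusted p = 0.132, edgeR). Of 35 cadherins and protocadherins 4 were lower (PCDH1, CELSR2, CDH4 and PCDHGC3) and 1, FAT4, was higher, while 13 of the 35 were above 0. PCDH1 had 75.3 and 93.0 against 31.8 and 35.8 CPM (log2 fold change -1.32, SE 0.16, adjusted p = 5.69e-05, edgeR). The log2 fold change of CDH4 (-1.04) was -0.97 without replicate A of RBM6-KO cells, that of PCDHGC3 (-1.05) was -0.81 without replicate B of RBM6-KO cells and -0.98 without replicate A of the control cells, and that of FAT4 (1.77) was 1.05 without replicate A of RBM6-KO cells. E-cadherin itself (CDH1), the main adhesion protein of epithelial sheets, had 16.3 and 22.2 against 15.9 and 12.0 CPM and did not pass (adjusted p = 0.267, edgeR). ADAM19, a membrane protease that sheds growth factors, had 117 and 104 CPM in control and 38.1 and 21.7 in RBM6-KO cells (log2 fold change -1.88, SE 0.20, adjusted p = 1.61e-05, edgeR).

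Transporters and channels moved both ways. Of 222 solute carriers tested 8 were lower and 5 higher, and their median log2 fold change was -0.02. SLC2A3 (ENSG00000059804, chromosome 12, 7919230 to 8019007), the glucose transporter GLUT3, had 40.3 and 37.8 CPM in control and 5.54 and 4.41 in RBM6-KO cells (log2 fold change -2.96, SE 0.21, adjusted p = 1.09e-07, edgeR). SLC4A11, a solute carrier of chromosome 20, had 6.89 and 10.1 against 0.791 and 1.14 CPM (log2 fold change -3.15, SE 0.35, adjusted p = 1.76e-05, edgeR). SLC26A2, a sulfate transporter, rose from 38.5 and 27.9 to 98.0 and 91.4 CPM (log2 fold change 1.51, SE 0.17, adjusted p = 2.3e-05, edgeR). SLC7A11, which imports cystine for glutathione synthesis, went from 60.8 and 36.8 to 106 and 108 CPM, a log2 fold change of 1.14 that was 0.83 without replicate B of the control cells. The drop in SLC2A3 was therefore the largest in CPM among these carriers, and SLC12A7, with 12 and 41 counts against 0 and 0, was at least 7.95-fold lower. Of 85 ion channels and aquaporins 5 were higher and 4 lower. KCNAB2, a beta subunit of potassium channels, rose from 44.6 and 43.0 to 126 and 129 CPM (log2 fold change 1.54, SE 0.15, adjusted p = 3.58e-06, edgeR). KCNJ15, an inward rectifier of potassium, fell from 18.5 and 17.3 to 5.25 and 4.75 CPM (log2 fold change -1.84, SE 0.22, adjusted p = 5.09e-05, edgeR). Of 88 G protein-coupled receptors in the list used, which does not hold all of them (C5AR2 is not in it), 6 were lower and 2, LPAR1 and CXCR4, were higher. LPAR1, a receptor for lysophosphatidic acid, went from 2.89 and 2.69 to 7.51 and 6.15 CPM (log2 fold change 1.29, adjusted p = 0.00814, edgeR). CXCR4, which had 11 and 16 counts in control cells, lost its call without any 1 of the 4 libraries, with adjusted p-values of 0.0512 to 0.108 in edgeR. All 3 called receptor tyrosine kinases of 23 tested were lower, IGF1R, KDR and FGFR4. IGF1R had 66.6 and 74.4 against 40.2 and 29.2 CPM. Its log2 fold change of -1.02 was -0.81 without replicate B of RBM6-KO cells and -0.93 without replicate B of the control cells. KDR (log2 fold change -3.98) had 103 and 65 counts in control and 10 and 0 in RBM6-KO cells. FGFR4 (log2 fold change -1.24) had 73 and 107 counts against 39 and 32. DESeq2 called neither KDR (adjusted p = 0.308, DESeq2) nor FGFR4 (adjusted p = 0.0873, DESeq2). Without replicate B of RBM6-KO cells the log2 fold change of KDR was -3.1.

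In metabolism, the called enzymes of fatty acid and sterol pathways were lower but for 1. The synthetic pathways start from acetyl-CoA, are joined by NADPH-consuming steps, and are switched on together by the SREBP transcription factors. Of 111 fatty acid and glycerolipid enzymes tested 8 were called as lower and 1 as higher, and of 47 sterol and sphingolipid enzymes 3 were called, all lower, while 46 of the 111 and 16 of the 47 were above 0. By the adjusted p alone, without the limit of 2-fold, 13 of the 111 were lower and 1 higher, and 9 of the 47 were lower and 1 higher. Of all genes 6.12% passed and 3.73% were lower. FASN (ENSG00000169710, chromosome 17, 82078338 to 82098294), the fatty acid synthase, had 1299 and 1392 CPM in control and 682 and 633 in RBM6-KO cells. Its mean fell by 688 CPM, the largest loss among called protein-coding genes, with a log2 fold change of -1.03 (SE 0.14, adjusted p = 0.000122, edgeR). Both RBM6-KO libraries were far under both control libraries, but the change sat at the limit of 2-fold and was -0.83 with GC and length offsets, -0.98 without replicate B of RBM6-KO cells and -0.97 without replicate B of the control cells. SCD (chromosome 10, 100347233 to 100364826), the desaturase that makes oleate, had 553 and 576 against 238 and 199 CPM (log2 fold change -1.37, SE 0.14, adjusted p = 1.07e-05, edgeR). FADS2, a desaturase of polyunsaturated fatty acids, had 123 and 110 against 38.7 and 41.3 CPM (log2 fold change -1.54, SE 0.15, adjusted p = 4.55e-06, edgeR). ACSS2, which makes acetyl-CoA from acetate and lies on chromosome 20, had 105 and 124 against 53.1 and 50.2 CPM (log2 fold change -1.15, SE 0.15, adjusted p = 0.0001, edgeR). CRAT, carnitine acetyltransferase, fell furthest in proportion, from 44.7 and 42.3 to 5.54 and 3.81 CPM (log2 fold change -3.21, SE 0.22, adjusted p = 6.9e-08, edgeR).

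The sterol genes moved by smaller amounts. HMGCS1, which makes HMG-CoA, had 63.0 and 42.0 CPM in control and 30.3 and 18.1 in RBM6-KO cells, and its log2 fold change of -1.11 (SE 0.23, adjusted p = 0.00548, edgeR) was -0.79 without replicate B of RBM6-KO cells and -0.79 without replicate A of the control cells. DHCR7, the last enzyme of cholesterol synthesis, had 141 and 127 against 68.3 and 65.3 CPM, and its log2 fold change of -1.01 fell under the 2-fold limit with GC and length offsets (-0.84), without replicate B of RBM6-KO cells (-0.98) and without replicate A of the control cells (-0.93), with an adjusted p of at most 0.00174 by edgeR in these fits. TM7SF2, a sterol reductase, had 5.48 and 7.20 against 2.15 and 1.87 CPM (log2 fold change -1.65, adjusted p = 0.0024, edgeR). Further genes of the route, named after their values were seen, were lower by under 2-fold at an adjusted p under 0.05 in edgeR. Their log2 fold changes were -0.90 for FDFT1, -0.83 for MSMO1 and -0.75 for FDPS. They are a selection and not a full list of the route. Of the 47 sterol and sphingolipid enzymes tested 16 were above 0. SREBF1, which encodes the regulator SREBP1, was also named after its values were seen. It had 156 and 146 CPM in control and 84.3 and 81.5 in RBM6-KO cells. Its log2 fold change was -0.86, at an adjusted p under 0.05 in edgeR. A part of SREBP1 in the changes of these enzymes was not tested. In 9 of the 12 called lipid and sterol genes replicate B was the lower of the RBM6-KO libraries.

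**Figure D4:**
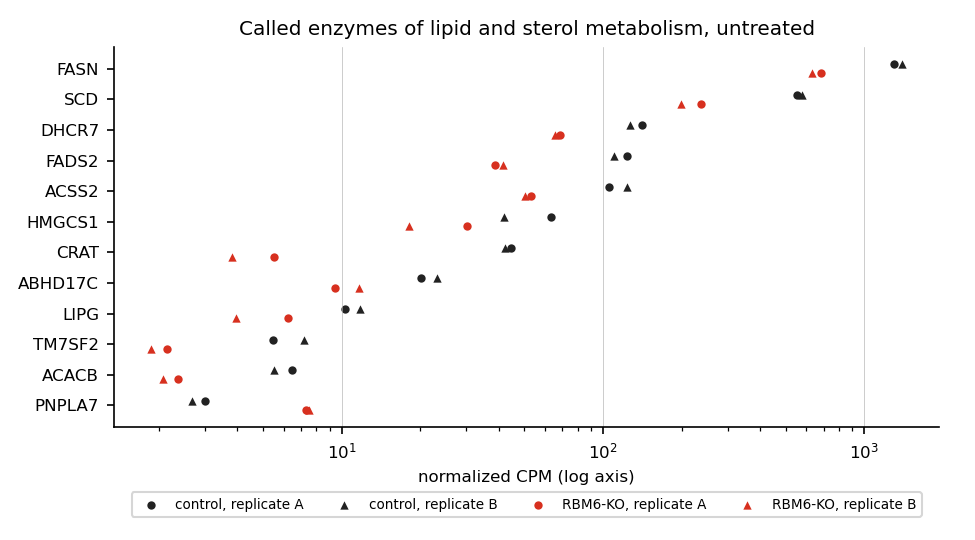
Normalized CPM (horizontal, log axis) in each untreated library for the 12 called enzymes of fatty acid, glycerolipid, sterol and sphingolipid metabolism, with circles for replicate A and triangles for replicate B. In 11 of them both RBM6-KO libraries lie below both control libraries, and PNPLA7 is the exception above them.

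Promoters of these genes are shown because the called members but 1 were lower. RefSeq promoter sequences (GRCh38.p14) of 250 bases before the transcription start were matched by symbol for 9 of the 12 called genes, with none for FASN, CRAT and PNPLA7. A letter pattern of the sterol regulatory element, TCACNCCAC on either strand, was found in 0 of the 9 and in 0.875% of all 27305 promoters of that length. For so rare a pattern almost any 9 promoters would give 0, so this count says nothing about such elements. The 27305 promoters were not limited to genes expressed here. CCAAT, the core of the NF-Y box, on either strand, was found in 6 of the 9 against 33.0% of all promoters. SCD, HMGCS1 and DHCR7 held 2 copies each, in capitals (ATTGG is the pattern read on the other strand). A match of letters is a description and does not show that a factor binds there.
SCD promoter, chr10:100346983-100347232, plus strand: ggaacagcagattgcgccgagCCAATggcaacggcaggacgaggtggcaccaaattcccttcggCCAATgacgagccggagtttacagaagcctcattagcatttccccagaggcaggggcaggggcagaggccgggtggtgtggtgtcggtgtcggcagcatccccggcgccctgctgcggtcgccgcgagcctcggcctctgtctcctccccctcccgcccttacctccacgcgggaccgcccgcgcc
HMGCS1 promoter, chr5:43313413-43313662, minus strand: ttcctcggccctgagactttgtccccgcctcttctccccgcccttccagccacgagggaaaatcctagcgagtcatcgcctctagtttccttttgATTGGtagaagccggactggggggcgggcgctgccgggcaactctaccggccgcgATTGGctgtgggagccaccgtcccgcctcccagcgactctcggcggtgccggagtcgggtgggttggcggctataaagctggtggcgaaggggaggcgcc
DHCR7 promoter, chr11:71448394-71448643, minus strand: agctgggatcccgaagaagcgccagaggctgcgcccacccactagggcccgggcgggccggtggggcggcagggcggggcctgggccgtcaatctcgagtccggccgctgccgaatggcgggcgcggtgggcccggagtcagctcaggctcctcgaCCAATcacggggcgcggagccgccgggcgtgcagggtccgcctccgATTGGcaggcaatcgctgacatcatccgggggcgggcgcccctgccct

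Outside lipid synthesis, metabolic genes with the smallest p-values belonged to several pathways. ALOX5AP (chromosome 13, 30713478 to 30764426), which presents arachidonic acid to 5-lipoxygenase for leukotriene synthesis, had 48.0 and 37.7 CPM in control and 0.791 and 0.401 in RBM6-KO cells. The cyclooxygenases PTGS2 and PTGS1, which start prostaglandin synthesis from the same fatty acid, were also lower, so that all 3 called eicosanoid enzymes of 19 tested went the same way. PTGS2 had 28.0 and 21.2 against 8.53 and 8.29 CPM (log2 fold change -1.54, SE 0.21, adjusted p = 0.000177, edgeR), and PTGS1 (log2 fold change -1.29) lost its call without replicate B of the control cells (adjusted p = 0.112, edgeR). GAMT, the last enzyme of creatine synthesis, had 12.2 and 15.2 against 0.791 and 0.602 CPM (log2 fold change -4.27, SE 0.32, adjusted p = 1.76e-07, edgeR). TXNIP, which binds thioredoxin and holds back glucose uptake, had 571 and 712 against 303 and 236 CPM (log2 fold change -1.25, SE 0.16, adjusted p = 7.27e-05, edgeR). DHRS3, a retinaldehyde reductase named after its values were seen, had 214 and 242 against 87.0 and 88.7 CPM (log2 fold change -1.37, SE 0.14, adjusted p = 9.56e-06, edgeR). Higher enzymes were fewer and 2 of them were abundant. GDA, guanine deaminase of purine breakdown, rose from 50.7 and 52.7 to 283 and 267 CPM. UGP2, which makes UDP-glucose for glycogen and glycosylation, rose from 204 and 151 to 443 and 386 CPM (log2 fold change 1.23, SE 0.16, adjusted p = 8.27e-05, edgeR). CYP1B1, a cytochrome P450 of steroid and xenobiotic oxidation, rose from 43.6 and 34.6 to 85.6 and 107 CPM (log2 fold change 1.30, SE 0.17, adjusted p = 8.66e-05, edgeR). PDE3B, a cyclic nucleotide phosphodiesterase, had 0 counts in each control library and 22 and 24 in RBM6-KO cells, and was at least 8.23-fold higher.

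Cytoskeletal genes were called at 4.31%, near the share of all genes (3.12%), in both directions. MYL9 (ENSG00000101335, chromosome 20, 36541497 to 36551447), a regulatory light chain of myosin in contractile cells, had 54.0 and 57.9 CPM in control and 11.7 and 11.7 in RBM6-KO cells (log2 fold change -2.26, SE 0.18, adjusted p = 3.36e-07, edgeR). KRT80 (chromosome 12, 52168996 to 52192014), a type II keratin, had 24.6 and 25.3 against 3.11 and 4.82 CPM (log2 fold change -2.66, SE 0.24, adjusted p = 2.1e-06, edgeR), and it was the keratin or intermediate filament gene called among 23 tested. CORO1A, a coronin that binds actin, had 14.5 and 15.6 against 4.46 and 5.08 CPM (log2 fold change -1.66, SE 0.23, adjusted p = 0.000191, edgeR). ABLIM3 (chromosome 5, 149141483 to 149260542), an actin-binding LIM protein, rose from 102 and 107 to 275 and 250 CPM (log2 fold change 1.33, SE 0.14, adjusted p = 1.14e-05, edgeR). CDC42BPA, a kinase that acts with CDC42 on actomyosin, rose from 79.3 and 63.5 to 150 and 147 CPM, with a log2 fold change of 1.05 (SE 0.15, adjusted p = 0.000247, edgeR) that was 0.91 without replicate B of the control cells and 0.99 with GC and length offsets. DYNC2H1, the dynein motor of cilia, rose from 13.8 and 10.8 to 25.9 and 28.4 CPM, with a log2 fold change of 1.15 that was 0.99 without replicate B of the control cells. Of 75 actin assembly and bundling proteins 2 were lower and 3 higher. TAGLN, the actin-binding protein transgelin, named after its values were seen, had 8.37 and 8.49 against 3.11 and 4.41 CPM (log2 fold change -1.17, adjusted p = 0.0123, edgeR), and its change was -0.93 without replicate A of RBM6-KO cells.

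Transcription factors were called at 3.64%, and the largest family, with 474 zinc finger and ZBTB genes tested, had 5 (1.05%). LMX1B (ENSG00000136944, chromosome 9, 126613928 to 126701032), a LIM homeobox factor, had 8.31 and 9.62 CPM in control and 0.282 and 0.535 in RBM6-KO cells, or 135 and 179 counts against 5 and 8 (log2 fold change -4.46, SE 0.38, adjusted p = 1.03e-06, edgeR). ZNF32 had 3.63 and 4.89 against 0.282 and 0.201 CPM (log2 fold change -4.09, SE 0.47, adjusted p = 3.09e-05, edgeR). FOS, a subunit of the AP-1 factor induced by growth factors, had 37.9 and 36.0 against 16.7 and 14.9 CPM (log2 fold change -1.23, SE 0.18, adjusted p = 0.000338, edgeR), while JDP2, which represses AP-1, rose from 10.2 and 10.2 to 20.8 and 23.9 CPM (log2 fold change 1.13, SE 0.20, adjusted p = 0.00183, edgeR). ATOH8 (chromosome 2, 85751344 to 85791383), a basic helix-loop-helix factor, was at 1.35 and 1.61 CPM in control and 17.6 and 20.1 in RBM6-KO cells. PAX8, a paired box factor, rose from 2.71 and 2.53 to 8.36 and 9.23 CPM (log2 fold change 1.75, SE 0.27, adjusted p = 0.000544, edgeR). EBF1, known from B cell development, rose from 2 and 11 counts to 46 and 67, and its log2 fold change of 3.22 was 2.55 without replicate A and 4.77 without replicate B of the control cells. All 3 called HOX genes of 20 tested were lower, HOXA5, HOXB9 and HOXB13, and 16 of the 20 were below 0. HOXA5 had 32.1 and 26.2 against 13.1 and 15.4 CPM and a log2 fold change of -1.03, which was -0.92 without replicate A of RBM6-KO cells and -0.88 without replicate A of the control cells. The call of HOXB9 was lost without replicate B of the control cells (adjusted p = 0.174, edgeR). WT1 and HOXB13 had 0 counts in both RBM6-KO libraries, against 15 and 16 and against 12 and 13, and were at least 4.82-fold and 3.88-fold lower.

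The repressors of E-cadherin that are known from epithelial to mesenchymal transition moved in different directions. ZEB1 had 12.3 and 4.89 CPM in control and 15.4 and 20.1 in RBM6-KO cells, and ZEB2 had 8.80 and 4.94 against 16.1 and 11.7 CPM. Their log2 fold changes were 1.06 (SE 0.30, adjusted p = 0.0480, edgeR) and 1.03 (SE 0.27, adjusted p = 0.0286, edgeR). Replicate B of the control cells was well below replicate A for both, and without it the changes were 0.54 for ZEB1 and 0.67 for ZEB2 and neither was called. Without replicate A of the control cells that of ZEB1 was 1.86. SNAI1, the gene of Snail, was low throughout, with 30 and 41 counts in control and 8 and 8 in RBM6-KO cells (log2 fold change -2.03, SE 0.48, adjusted p = 0.0145, edgeR), and it too lost its call without replicate B of the control cells (adjusted p = 0.177, edgeR) and without replicate A of RBM6-KO cells (adjusted p = 0.0531, edgeR).

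Ranked by the difference in mean CPM, the called protein-coding genes that lost most were FASN, TGM2, TXNIP, SCD and APOBEC3C, and those that gained most were UGP2, GDA, EIF5B, ABLIM3 and S100A4. APOBEC3C, a cytidine deaminase of antiviral defence, had 293 and 320 CPM in control and 122 and 138 in RBM6-KO cells (log2 fold change -1.24, SE 0.14, adjusted p = 2.45e-05, edgeR). S100A4, a calcium-binding protein linked to cell motility, rose from 34.6 and 60.8 to 138 and 230 CPM (log2 fold change 1.94, SE 0.24, adjusted p = 5.09e-05, edgeR). EIF5B, a GTPase of ribosomal subunit joining, had 238 and 191 against 333 and 529 CPM, and its log2 fold change of 1.01 rested on replicate B of RBM6-KO cells, without which it was 0.63, and was 0.87 without replicate B of the control cells. The genes that the study itself named in these libraries were lower in every RBM6-KO library. APBB1, which encodes Fe65, had 5.73 and 6.45 against 0.226 and 0.468 CPM, EYA2 3.51 and 4.03 against 0.395 and 0.0669, and PPP2R2C 5.17 and 5.64 against 0.904 and 0.535. The change of EYA2 rested on 7 and 1 counts in RBM6-KO cells, and its log2 fold change of -3.92 was -5.67 without replicate A and -3.23 without replicate B. By RT-qPCR the study also found APBB1, EYA2 and PPP2R2C lower in additional RBM6 knockout clones. It reported lower APBB1 mRNA with short hairpin RNAs against RBM6 as well.

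After IR, with other libraries of the same clone and the same control cells, 182 of 15587 genes (1.17%) were called, and 541 when the replicate letter is a block. Of all 486 genes called untreated, 469 were tested there, 468 had the same direction and 155 were called again, or 296 with the block. Of the called secreted genes 39 were tested there, all 39 had the same direction and 15 were called again. For membrane genes these numbers were 64, 64 and 24, for metabolic genes 32, 32 and 14, and for transcription factors 31, 31 and 9. Cytoskeletal genes gave 19, 18 and 5, the exception being KIF20B, a kinesin of cell division. Both comparisons use the same clone, so the shared direction concerns these cells and no other knockout of RBM6. Of 162 named genes called untreated and tested after IR, 65 were called again, or 114 with the block, and 126 had a fold within 1.5 times of the untreated one, while 124 were nearer 0. These genes were picked by their untreated values, which by itself favours changes nearer 0 in other libraries, so the 124 do not show a weaker change after IR. IL1R2 had a log2 fold change of 4.81 (SE 0.24) untreated and 4.55 (SE 0.25) after IR, GDA 2.41 and 2.58, TGM2 -2.30 and -2.16, CRAT -3.21 and -3.00, and SLC2A3 -2.96 and -2.56. Some were not called after IR with or without the block, with ADGRG3 at -1.51 and -0.41 and DHRS3 at -1.37 and -0.47. The difference between the treatments was not tested for these genes.

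**Figure D5:**
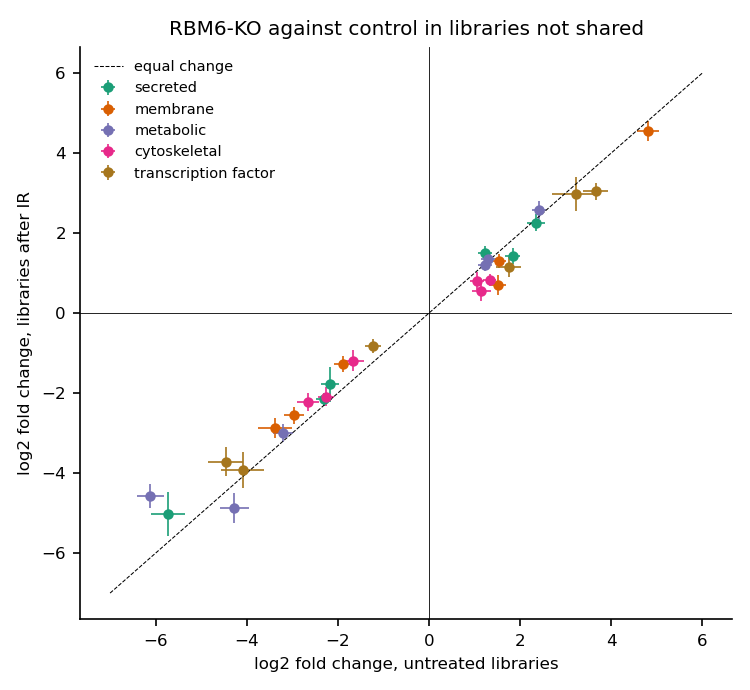
Log2 fold change of RBM6-KO against control in untreated libraries (horizontal) and in libraries after IR (vertical) for the 30 genes with the smallest p of each functional class, as points with standard errors, with a dashed line of equal change. All 30 lie at the lower left or the upper right, with the same sign on both axes, and most of the lower genes sit slightly above the line, nearer 0 after IR. The genes were picked by their untreated p, which by itself favours larger changes on the horizontal axis.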

How the data were processed

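RNA-seq was made with a poly(A) TruSeq mRNA kit from MCF10A-Hras cells. The authors aligned the reads to hg38 with STAR, per the labels, and deposited whole-number counts per Ensembl gene without normalization. The labels also name DESeq2. The counting tool, annotation version and strandedness are not given in the sources used here, so overlapping and antisense genes cannot be told apart. The 8 libraries were grouped by the genotype and treatment labels, and every column of the count table belonged to one of them.

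The 4 untreated libraries were tested with edgeR 4.0.16 and limma 3.58.1 under R 4.3.3 (TMM, filterByExpr, quasi-likelihood test, Benjamini-Hochberg adjustment), and the 4 after IR in a fit of their own. A call needed an adjusted p under 0.05 and a 2-fold change. The standard error is the log2 fold change divided by the square root of F. DESeq2 1.42.0 was an alternative. The tests were checked on simulated counts. With 2 libraries a group, an exact two-sided permutation test of a single gene cannot go below p = 0.333, so no such test is given, and p-values measure the spread between 2 cultures of 1 clone and of 1 control line. A count of 0 was taken as up to 3 counts per library (0.161 to 0.201 CPM), which covers counting error only.

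Symbols, biotypes and positions came from GENCODE v44 (GRCh38), which holds 57392 of 58233 identifiers. Classes hold protein-coding genes by symbol family. Genes to be named were, per class and outside the classes, the 3 higher and 3 lower called protein-coding genes with the smallest p and no overlap, the 5 higher and 5 lower with the largest CPM difference, called members of families with at least 3 called, and RBM6, APBB1, EYA2 and PPP2R2C. Not all of the 165 genes of this rule are described, and some results are not reported here. Classes, families, markers and rules were chosen with earlier results of these data known. Alternatives were other scalings, DESeq2, other filters and thresholds, a replicate block, offsets for GC content and length, 1 fit to all 8 libraries, and fits that omit 1 library, where the remaining lone library is assumed to vary like the other group.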

Additional observations from a re-analysis of the deposited data

Results flagged for a closer look

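KIF20B, a kinesin of cell division, is the called gene whose direction differed between treatments. In untreated cells it had 27.0 and 28.3 normalized CPM in control and 38.4 and 74.2 in RBM6-KO cells, a log2 fold change of 1.02 (SE 0.23, adjusted p = 0.00995, edgeR). After IR it had 12.2 and 13.5 CPM in control and 11.1 and 7.26 in RBM6-KO cells, a log2 fold change of -0.49 (SE 0.26, adjusted p = 0.574, edgeR). It was noted because both RBM6-KO libraries lay above both control libraries before IR and below them after it. The difference between the treatments was not tested. The untreated value was 0.47 when replicate B of the RBM6-KO cells was omitted and 0.99 when replicate A of the control cells was, and neither was called. It was not called with GC and length offsets either (0.77), nor with the replicate block (0.96).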

How the results depend on the processing

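The 486 genes called in untreated cells were 335 with the DESeq2 Wald test, 118 with a test against a 2-fold change (glmTreat), 952 with the adjusted p alone and 368 with all 8 libraries in 1 fit, and 399 to 658 with a library left out. DESeq2 shared 334 calls with edgeR, and every called gene with a value kept its direction in each alternative. DESeq2 called 117 as higher, and without replicate A of the untreated control cells edgeR called 322 as higher and 336 as lower. By class, glmTreat called 13 secreted, 16 membrane, 6 metabolic, 2 cytoskeletal and 8 transcription factor genes, and the adjusted p alone 68, 115, 70, 50 and 65. With GC and length offsets the numbers in the same order were 32, 54, 27, 18 and 27. Transcription factors were 20 with DESeq2 and 21 with at least 10 counts in every library. After IR the 182 calls were 280 with DESeq2, 278 with GC and length offsets, 340 with all 8 libraries, 71 with at least 10 counts, 46 with glmTreat, 506 without a filter, and 169 to 477 with a library left out. With the replicate letter as a block, 524 genes were called untreated and 541 after IR, and with block and offsets together 525 and 578. The letters were not taken to pair the libraries, since nothing in the labels ties them and 2 letters are too few to judge from the data. Across genes the A to B differences of the genotypes correlated with r = 0.162 untreated and 0.568 after IR, so a shared effect of the letter after IR is possible. Of 164 named called genes, 94 kept their call in every alternative other than glmTreat that gave them a value, and 0 changed direction. The cause of these shifts was not tested. Depth limits genes under about 1 CPM.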

Other observations

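Genes in none of the 5 classes made up 299 of the 486 called genes, 173 lower and 126 higher, and those with the smallest p-values had varied functions. GRAMD1B, which moves cholesterol from the plasma membrane to the endoplasmic reticulum, had 78.0 and 56.2 normalized CPM in control and 6.67 and 5.62 in RBM6-KO cells. FBXO32, the ubiquitin ligase subunit atrogin, had 101 and 145 against 21.1 and 22.9 CPM (log2 fold change -2.48, SE 0.18, adjusted p = 1.37e-07, edgeR). NUP210, a nuclear pore protein of the membrane, had 8.43 and 9.57 against 0.734 and 0.602 CPM (log2 fold change -3.73, SE 0.34, adjusted p = 2.1e-06, edgeR). Each of these was several times lower in both RBM6-KO libraries. BST2, tetherin, which holds enveloped viruses at the cell surface, rose from 60.2 and 59.9 to 148 and 197 CPM (log2 fold change 1.52, SE 0.16, adjusted p = 1.07e-05, edgeR). C5AR2, a receptor for complement C5a, rose from 19.1 and 16.8 to 63.0 and 50.2 CPM (log2 fold change 1.66, SE 0.18, adjusted p = 1.61e-05, edgeR), and the kinase LRRK2 from 5.29 and 2.79 to 29.4 and 17.4 CPM (log2 fold change 2.54, SE 0.30, adjusted p = 3.46e-05, edgeR).

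Called long noncoding RNAs were more often higher than lower, and called coding genes more often lower. This split was not counted in the alternative fits. Of 1460 tested, 29 were called as higher and 17 as lower (3.15% in all against 3.12% of all genes), while of 12371 protein-coding genes 134 were higher and 285 lower. Among genes with no count in either RBM6-KO library, named after their values were seen, were PYCARD, the adaptor of inflammasomes, with 46 and 44 counts in control cells, CD1D, which presents lipids to T cells, with 25 and 39, and the kinase SYK with 13 and 16. They were at least 14.0-fold, 9.82-fold and 4.49-fold lower.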
